A study of Sus scrofa with 2 samples.

Results

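The transcription factors described here specify the neural crest and its pigment cell precursors, the melanoblasts. They were the 10 genes SOX10, PAX3, SNAI1, SNAI2, TFAP2A, TFAP2B, FOXD3, ZEB1, ZEB2 and TWIST1. A feature of the deposited table was taken as a member when its symbol, or failing that its description or its Ensembl pig name, was one of these. This found 8 of the 10 genes, as 9 of the 27622 features. No feature matched SNAI1 or FOXD3, and both were not analysed here. RNA-seq was done on the stria vascularis (SV), the ion-transporting epithelium of the cochlear lateral wall, of Rongchang pigs; the dissected lateral wall contained it. One genotype, Mitf R/r, is that of heterozygous carriers (here the carrier SV, 1 library). The other, Mitf r/r, is homozygous for the recessive r allele and gives albino, deaf pigs (here the albino SV, 1 library). Both genotypes carried at least 1 r allele, and no R/R library was included. The labels give both animals as postnatal day 1, whereas the text of the study places the comparison at an embryonic stage. How many animals each library came from is not given in the sources used here.

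The r allele carries insertions upstream of the transcription start of the melanocyte isoform of MITF. The probes designed for the R and r alleles at one of these sites are shown because this insertion distinguishes the genotypes compared. Both are written 5′ to 3′ as in the probe list of the study, and capitals mark 14 bases that the r probe has and the R probe lacks. The inserted bases repeat those before them, so that their exact placement within the repeat is not fixed.
R2: atgctaattgttttttagtttaaaaaaa
r2: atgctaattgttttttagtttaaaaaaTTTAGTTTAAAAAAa

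Melanocytes of the SV, which become its intermediate cells, arise from the neural crest. TFAP2 factors act at the border of the neural plate where the crest forms. SNAI, ZEB and TWIST proteins repress or remodel epithelial genes as crest cells leave the epithelium. SOX10 and PAX3 then bind together at the melanocyte promoter of MITF and activate it, and MITF in turn drives the pigment genes. SOX10 is also kept in Schwann cells and other glia, and ZEB1, ZEB2 and TWIST1 are used by many mesenchymal cells, so none of these genes marks melanocytes alone. The comparison asked whether these factors, which act before or beside MITF, remained in the albino SV.

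The answer differed between the members. SOX10, SNAI2, TWIST1, ZEB1 and ZEB2 were expressed in both SVs and differed by less than 2-fold. PAX3 was present in the carrier SV and listed at 0 in the albino SV. TFAP2A was 9.91-fold lower in the albino SV, and TFAP2B was low in the carrier SV and listed at 0 in the albino SV. Values were RPKM, reads scaled to the length of the gene model and to the mapped reads of the library. Whole reads could be worked out from them, and the libraries came to 15829244 (R/r) and 14258672 (r/r) reads. The reads given are the smallest whole numbers that yield the RPKM values, and the true ones may be a multiple. Model lengths were recovered together with these reads, and the true lengths may likewise be a multiple. Intervals at the 95% level are exact Clopper-Pearson intervals from these reads, so that they reflect counting alone. Since each genotype had a single library, no p-value or replicate check was possible, and differences are between these libraries. In bulk tissue, fewer cells of a type and less RNA per cell cannot be told apart.

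**Figure D1:**
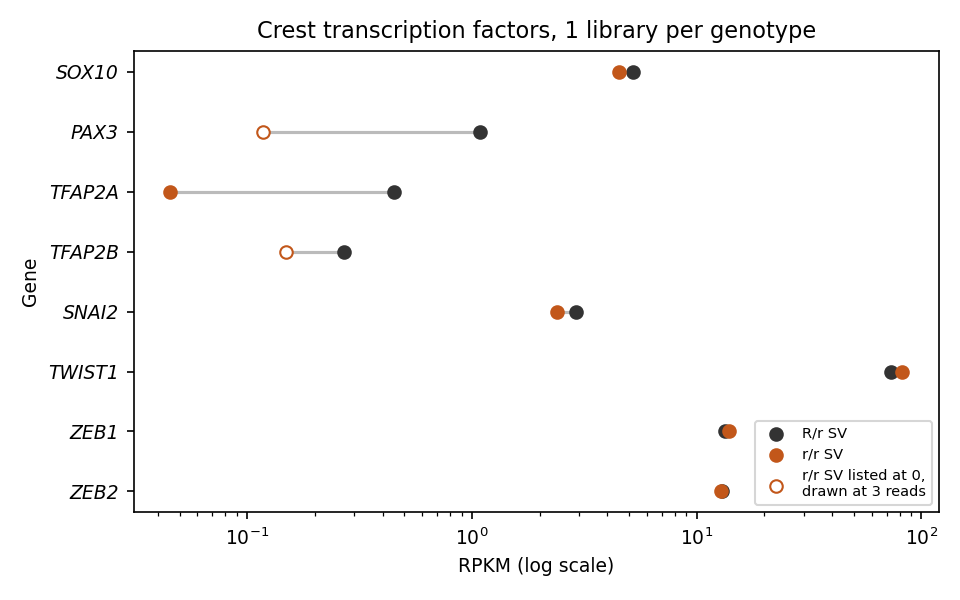
RPKM (log axis) of the 8 crest transcription factors found, with 1 point for each library. The R/r and r/r points lie close together for SOX10, SNAI2, TWIST1, ZEB1 and ZEB2, and far apart for PAX3 and TFAP2A; open points are genes listed at 0 in the albino SV, drawn at the RPKM of 3 reads.

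SOX10, the crest and glial factor that activates MITF, had 5.20 RPKM in the carrier SV and 4.50 RPKM in the albino SV. This feature (ENSSSCG00000021364, model length 1760 bases) held 145 and 113 reads. The log2 ratio, r/r over R/r, was -0.21 (-0.58 to 0.16), and the interval included no change and lay within 2-fold. A second feature of the same symbol, ENSSSCG00000000115, had 1 read in each library and changed nothing when added. Among features above 0 in both libraries with at least 20 reads, 22.0% had a lower ratio than SOX10.

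PAX3, the paired-box partner of SOX10 at the MITF promoter, had 1.09 RPKM in the carrier SV and was listed at 0 in the albino SV. The feature, ENSSSCG00000028418 with a model length of 1803 bases, is described in the table as an uncharacterized protein and takes its name from the Ensembl list. It had 31 reads in the carrier SV and 0 in the albino SV, where 27.9 reads would have been found at equal RPKM. A count of 0 was taken to allow up to 3 reads, or 0.117 RPKM in the r/r library. Against that floor PAX3 was 9.31-fold lower, a bound that takes its 31 carrier reads as exact. Zeros were also counted over all features, by their reads in the other library. Of 15210 features with at least 20 reads in the carrier SV, 5 (0.0329%) were listed at 0 in the albino SV. In the opposite direction, 0 of 14843 features with at least 20 reads in the albino SV (0%) were listed at 0 in the carrier SV, where the highest such feature had 14 reads. With at least as many R/r reads as PAX3 and 0 in the albino SV there were 4 features of 14229, namely PAX3, CDH19, CRYBB2 and 1 unannotated transcribed region. PAX3 met both limits through its carrier reads alone, and the second limit was its own count, so nothing is read from its place here. CDH19 is a cadherin of crest-derived glial precursors and had 32 reads in the carrier SV.

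Set against SOX10 within each library, PAX3 and TFAP2A took a smaller share in the albino SV. These shares reuse the same reads as the ratios of the single genes and are not separate evidence. In the carrier SV, PAX3 stood at 0.209 of the RPKM of SOX10 (0.137 to 0.309). In the albino SV, SOX10 had 113 reads beside 0 for PAX3. TFAP2A stood at 0.0864 of SOX10 in the carrier SV (0.0525 to 0.136) and at 0.0101 in the albino SV (0.00121 to 0.0373).

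TFAP2A encodes AP-2 alpha, which acts at the neural plate border and later beside MITF at pigment genes. It had 0.450 RPKM in the carrier SV and 0.0454 RPKM in the albino SV, from 22 and 2 reads on a model of 3089 bases. The log2 ratio was -3.31 (-6.44 to -1.28), and the interval lay wholly beyond 2-fold lower although the reads were few. Among features above 0 in both libraries with at least 20 reads, 0.103% had a lower ratio. TFAP2A met this minimum only through its carrier reads, so nothing is read from this rank. TFAP2A was below 1 RPKM in both SVs, and 16.2% of the 20862 features above 0 in either library had a lower RPKM in the carrier SV. TFAP2B, its close relative AP-2 beta, had 0.269 RPKM in the carrier SV from 6 reads, and 0 in the albino SV, where 5.40 reads would have been found at equal RPKM. Against the floor of 3 reads TFAP2B was 1.80-fold lower, short of 2-fold. This bound takes the 6 carrier reads as exact, so a smaller difference is not excluded. TFAP2C and TFAP2D were listed at 0 in both SVs.

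SNAI2, the zinc-finger repressor known as Slug, had 2.91 RPKM in the carrier SV and 2.40 RPKM in the albino SV, from 39 and 29 reads. Its log2 ratio of -0.28 (-1.02 to 0.45) was the lowest among the 5 members compared, and the interval included both no change and a 2-fold decrease. TWIST1, a basic helix-loop-helix factor of crest and other mesenchyme, had 73.2 RPKM in the carrier SV and 82.2 RPKM in the albino SV. Its log2 ratio was 0.17 (-0.14 to 0.48). The smallest gene model that yields the TWIST1 values was 151 bases long, with 175 and 177 reads. On that model a single read in the carrier SV weighed 0.418 RPKM. A longer model with more reads in proportion would give the same RPKM. TWIST2, its relative, had 22 and 10 reads, with 1.97 and 0.992 RPKM and a log2 ratio of -0.99 (-2.23 to 0.15), just short of 2-fold.

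ZEB1 and ZEB2 are zinc-finger homeodomain repressors of epithelial genes, and ZEB2 is also required for melanocyte differentiation. ZEB1 had 13.4 RPKM in the carrier SV and 13.9 RPKM in the albino SV, a log2 ratio of 0.05 (-0.16 to 0.25) with 397 and 369 reads behind it. ZEB2 had 12.9 and 12.8 RPKM, a log2 ratio of -0.01 (-0.16 to 0.14) with 775 and 695 reads behind it. These were the members with the most reads and the narrowest intervals, which lay well within 2-fold. The balance of both genes was also alike in the SVs, with ZEB1 at 1.05 of the RPKM of ZEB2 in the carrier SV (0.925 to 1.18) and 1.08 in the albino SV (0.953 to 1.23).

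**Figure D2:**
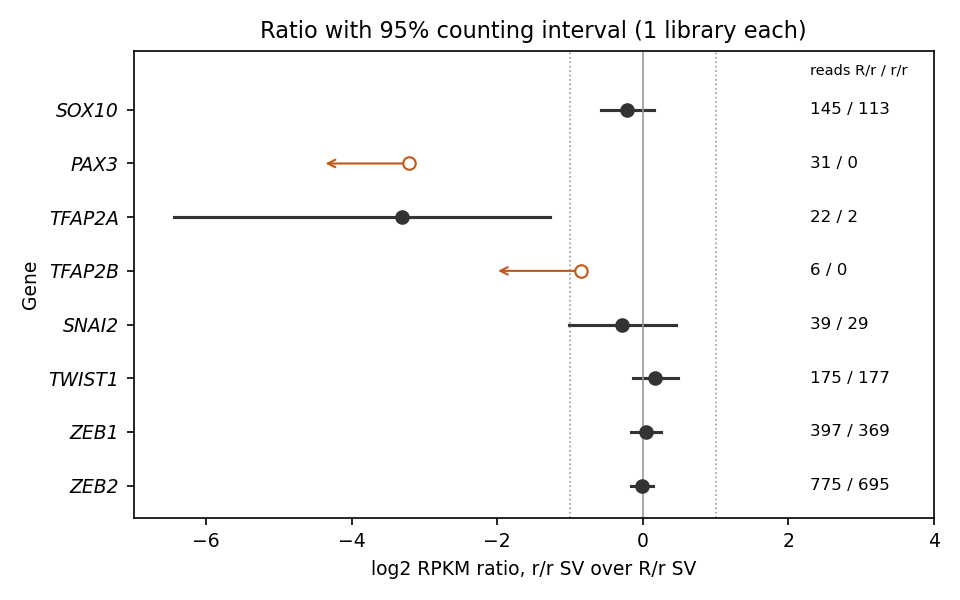
Log2 RPKM ratio of each member, r/r SV over R/r SV, with its 95% counting interval and the reads in each library; dotted lines mark 2-fold, and open points with arrows are bounds for genes listed at 0 in the albino SV. The interval of TFAP2A and the bound of PAX3 lie wholly beyond 2-fold, whereas those of SOX10, TWIST1, ZEB1 and ZEB2 lie within it.

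Ordered by RPKM in the carrier SV, the members ran from TWIST1 through ZEB1, ZEB2, SOX10, SNAI2, PAX3 and TFAP2A to TFAP2B. ZEB1 and ZEB2 could not be separated, as given above, nor could TFAP2A and TFAP2B, with a ratio of 1.67 (0.659 to 5.05). The other neighbours were apart by more than their counting error. TWIST1 was 5.44 times ZEB1 (4.53 to 6.52), ZEB2 was 2.47 times SOX10 (2.07 to 2.97), and SOX10 was 1.79 times SNAI2 (1.25 to 2.61). The level of SNAI2 was 2.68 times PAX3 (1.63 to 4.44), and PAX3 was 2.41 times TFAP2A (1.35 to 4.38). The order from TWIST1 to SNAI2 was the same in the albino SV, except that there too ZEB1 and ZEB2 overlapped. PAX3, TFAP2A and TFAP2B, listed at 0 or with an interval beyond 2-fold in the albino SV, were the 3 members with the lowest levels in the carrier SV.

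By the threshold of 2-fold among features above 0 in both libraries and at 1 RPKM or more in at least one, 5 members were compared and 0 of them passed. Of all 16331 features compared in this way, 3.99% were at least 2-fold apart, with 2.20% of all features lower in the albino SV and 1.78% higher. This threshold did not reach PAX3, which was at 0 in the albino SV, nor TFAP2A and TFAP2B, which were below 1 RPKM. The median log2 ratio of the 5 members was -0.01, beside -0.02 for all features compared, and -0.11 with PAX3 placed at its bound. A rule of at least 20 reads over both libraries, with 0 allowed, was chosen after the values had been seen. Over all 16521 such features, 65 (0.393%) had intervals wholly beyond 2-fold lower and 54 (0.327%) beyond 2-fold higher. PAX3 and TFAP2A met this minimum only through their reads in the carrier SV, so that they could be called in 1 direction alone, and nothing is read from their passing it.

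**Figure D3:**
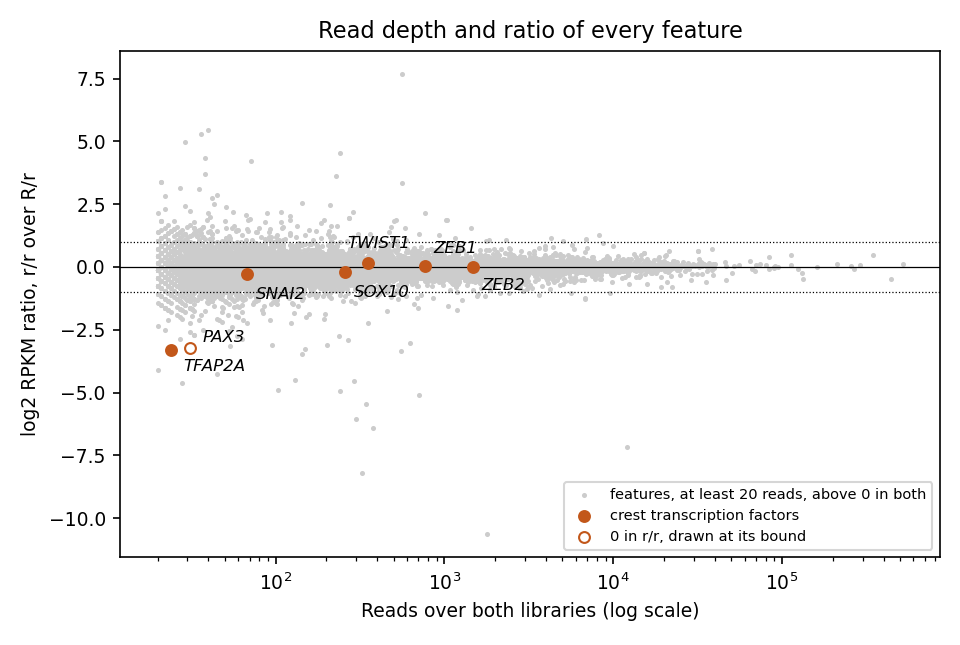
Reads over both libraries (log axis) against the log2 RPKM ratio, r/r SV over R/r SV, with each grey point a feature above 0 in both libraries with at least 20 reads. The members with 68 or more reads sit in the central band, and PAX3 (open, drawn at its bound) and TFAP2A lie below it at 31 and 24 reads.

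The other transcription factors of the crest that were compared differed by less than 2-fold between the SVs. Of 24 genes in this list, 18 were matched to the table by name and the other 6, SOX6 among them, were not analysed here. Of those matched, 14 were compared, and 0 were at least 2-fold apart, with a median log2 ratio of 0.09. Over all features compared the share was 3.99%, so a count of 0 in so short a list lies near it. ZIC2, a zinc-finger factor of the neural plate border, had the highest level of the list at 212 RPKM in the carrier SV and 224 RPKM in the albino SV. ID2, an inhibitor of basic helix-loop-helix factors, had the highest ratio, with 105 and 173 RPKM and a log2 ratio of 0.72 (0.65 to 0.80). MYC had the lowest of the 14, -0.33 (-0.62 to -0.05). SOX9, which precedes SOX10 in crest cells and is also used by otic epithelium and cartilage, had 83.7 and 74.8 RPKM, and SOX5 had 31 and 25 reads. Of the cofactors of these proteins, 9 of 13 genes were compared and 0 were 2-fold apart, with a median of 0.01. RCOR1 had the highest ratio at 0.21 and TCF4 the lowest at -0.12, and CITED2, a co-activator of AP-2 proteins, had the highest RPKM of the list, 77.5 and 77.8.

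Genes that SNAI, ZEB and TWIST proteins are known to repress or accompany also showed no difference of 2-fold. In lists this short, counts of 0 lie near the share of 3.99% over all features compared. Among epithelial genes, 6 of 11 were compared and 0 were 2-fold apart, with a median log2 ratio of -0.13. CDH1, the epithelial cadherin that these factors repress, had 226 RPKM in the carrier SV and 206 RPKM in the albino SV, a log2 ratio of -0.13 (-0.20 to -0.07). GRHL2, an activator of epithelial genes, had the lowest ratio at -0.25, and the polarity gene CRB3 the highest at 0.06. Among mesenchymal genes, all 9 were compared and 0 were 2-fold apart, with a median of -0.05. VIM (vimentin) had 1939 and 2065 RPKM. ITGA5, the fibronectin receptor subunit, had 70.1 and 41.9 RPKM and the lowest ratio of -0.74 (-0.86 to -0.62), and TNC had the highest at 0.28.

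Most genes of pigment synthesis, which lie downstream of these factors and MITF, were lower. Of 17 MITF targets and pigment genes, 13 were compared, 8 were at least 2-fold lower in the albino SV and 0 were higher. Over all features compared, 2.20% were lower and 1.78% higher. The study had already reported TRPM1, DCT, TYR, RAB38, SLC45A2, PMEL and EDNRB as lower in this comparison. The pigment list had a median log2 ratio of -3.34. MLANA, with 12.0 RPKM in the carrier SV and 0 in the albino SV, was left out of it. Its smallest recovered model was 21 bases with 4 reads, so no useful bound could be set. DCT, an enzyme of melanin synthesis and the gene with the highest RPKM of the list, stood at 32.9 times the RPKM of SOX10 in the carrier SV (28.0 to 39.1) and at 0.265 of it in the albino SV (0.195 to 0.358). Log2 ratios were -6.06 for TYR, -4.92 for PMEL, -5.11 for SLC45A2, -5.44 for RAB38, -1.25 for GPR143 and -3.34 for EDNRB. TRPM1 was the lowest at -10.64 (-15.95 to -8.16), with 1 read left in the albino SV, and OCA2 the highest at 0.04 (-0.78 to 0.87). The MITF feature of highest RPKM, which does not separate the isoforms, was at -0.45 (-0.75 to -0.16). The other MITF features were at -0.51 (-0.82 to -0.20) and -0.48 (-0.82 to -0.14). From reads counted by exon, the study reported a larger decrease for the exon of the melanocyte isoform. KIT, the receptor that melanoblasts need to survive, had 43.6 and 44.2 RPKM.

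**Figure D4:**
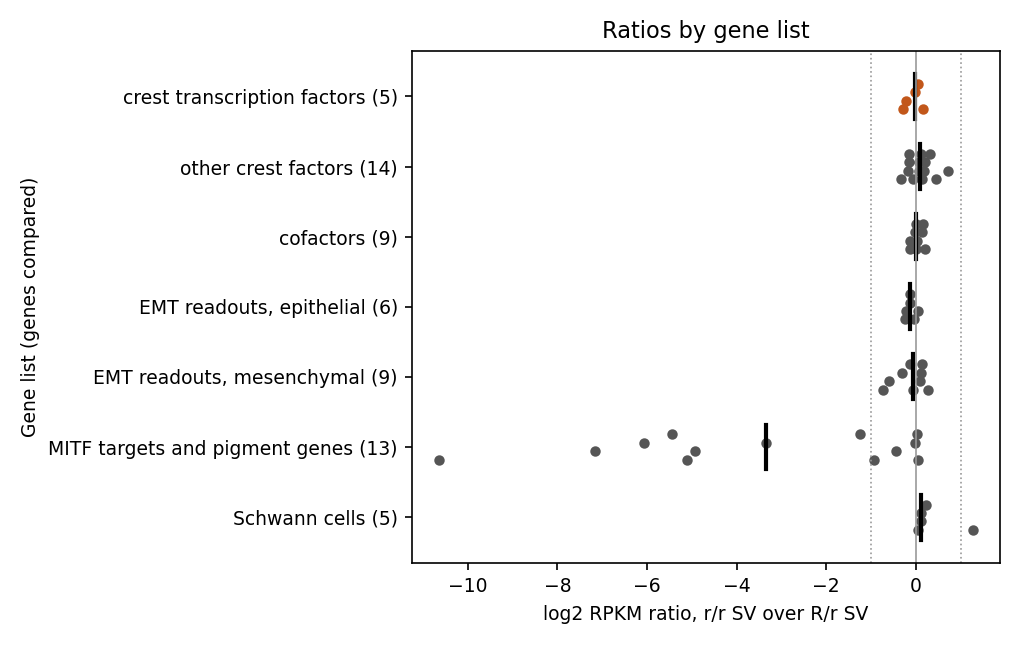
Log2 RPKM ratio, r/r SV over R/r SV, of each gene compared, by list (number of genes in brackets), with the list median as a black bar and dotted lines at 2-fold. The crest factors compared, their cofactors and the epithelial and mesenchymal genes lie within 2-fold. PAX3, TFAP2A and TFAP2B were not among the genes compared and are not drawn. The pigment genes extend down to -10.64, and GFAP stands apart in the Schwann cell list.

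SOX10 is shared by melanocytes and Schwann cells, and the markers of Schwann cells did not move together. Of the 9 such genes considered here 7 were in the table, and their summed RPKM was 6181 in the carrier SV and 6444 in the albino SV, most of it from S100B, which other cells of the lateral wall can express and which had the lowest ratio of the 5 compared, 0.04. CDH19 was at least 9.61-fold lower. GFAP, an intermediate filament of glia, was higher, with 56.2 and 136 RPKM and a log2 ratio of 1.28 (1.21 to 1.34). The study had already reported GFAP as higher in this comparison. GFAP was the only one of the 5 compared to be 2-fold apart, beside a list median of 0.12. ERBB3, the neuregulin receptor of crest and glia, was at 0.22 (0.04 to 0.39), and NGFR had 13 and 10 reads. The part of these cells in the values of SOX10, PAX3 and TFAP2A was not tested.

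Marker genes of marginal cells and of other tissues of the dissection were also looked at, and not all were read in both libraries. Marginal cell genes, which mark the labelled tissue, included KCNE1 with 278 and 248 RPKM and BSND with 10.5 and 7.62 RPKM. All 5 compared were within 2-fold, with a median log2 ratio of -0.31 and the lowest ratio, -0.81, in ATP1B2, which also had the highest level with 915 and 522 RPKM. SLC12A2 had the highest ratio of these, 0.10. Lateral wall fibrocyte genes, led by COCH at 6826 and 4914 RPKM, had a median of -0.16, and 1 of 7 compared was 2-fold lower, COL1A1 at -1.21, while TBX18 had the highest ratio at 0.25. Bone genes had a median of -0.71, with 2 of 7 at least 2-fold lower, MEPE at -3.14 and DMP1 at -1.11. The study had already reported DMP1 as lower in this comparison. The summed RPKM of the bone genes was 649 in the carrier SV and 442 in the albino SV. IBSP had the highest level of the bone genes, 431 and 268 RPKM, and SPP1 the highest ratio, 0.27. TWIST1, ZEB1 and ZEB2, which bone cells and fibrocytes can also use, had ratios of 0.17, 0.05 and -0.01 as given above. Endothelial and pericyte genes (median -0.01, 5 compared), macrophage genes (-0.33, 5 compared) and muscle genes (-0.25, 2 compared) had 0 genes 2-fold apart. The endothelial and pericyte ratios ran from -0.21 in PECAM1 to 0.24 in TEK, with RGS5 the most abundant at 84.9 and 85.0 RPKM. Macrophage ratios ran from -0.48 in CX3CR1 to 0.10 in AIF1, the most abundant at 18.2 and 19.5 RPKM. Of the muscle genes, CKM was at -0.41 and MYH3, the most abundant, at -0.10. ACTA1 and MYOD1 each had 0 reads in the carrier SV and 1 in the albino SV. Of the neuronal genes only STMN2 was compared, at -0.88 (-1.63 to -0.16). NEFL had 3 and 35 reads, a log2 ratio of 3.70 (2.03 to 6.04) at under 1 RPKM. SYT1 had 27 and 40 reads, whereas TUBB3, NEFM and SNAP25 had 7 or fewer in each library and NEFH had 0. The presence of muscle or neurons is therefore not read from these lists. The part of these tissues in the members' values was not tested.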

How the data were processed

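RNA-seq values of the Mitf R/r (carrier) and Mitf r/r (albino) SV were compared, 1 library each. The authors mapped paired reads with TopHat2 (2.0.7; build Sscrofa10.2, both from the submitters' processing notes) and deposited 1 RPKM value per feature and library; the counting program and annotation are not given in the sources used here. The table's 2 columns without headings hold the authors' differences and ratios for a few genes and were not used. Names came from the table's symbols (16376 features), its descriptions (307) and an Ensembl name table (1627). Where features share a symbol, that of highest mean RPKM was used. Whole reads were recovered for 100% of 20862 features above 0; with a total of 1 read more, 96.1% of 1044 features gave none. A read on 1 kb weighed 0.0632 (R/r) and 0.0701 (r/r) RPKM, and 89.4% and 89.3% of reads lay on features. No pseudocount was used. The floor was 3 reads for a gene listed at 0. Bounds set at this floor take the reads of the other library as exact and are not Clopper-Pearson limits. The steps were tested on simulated data. A few genes of the lists are not reported here and do not enter the list values. The members and gene lists were chosen with earlier results of these data known. Named genes were all members, MITF, and in each other list the genes 2-fold apart, the most abundant, and the lowest and highest ratio. CDH19, KIT, SOX9, SOX5, BSND, KCNE1, CRYBB2, NEFL, ERBB3, NGFR, TFAP2C, TFAP2D, SOX6 and MLANA were added after their values were seen. So were ACTA1, MYOD1, SYT1, TUBB3, NEFM, SNAP25 and NEFH. Scripts ran in Python (3.11.15) with scipy (1.17.1), numpy (2.4.6), pandas (2.3.3) and, for plots, matplotlib (3.10.9).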

Additional observations from a re-analysis of the deposited data

How the results depend on the processing

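The count of members at least 2-fold apart stayed at 0 with a minimum of 5 RPKM, after scaling by the median ratio, to TPM or by the upper quartile, with the features of a symbol summed, at a threshold of 1.5-fold and when the counting interval had to lie wholly beyond 2-fold. The minimum of 5 RPKM and the interval rule are stricter than the main rule, so a count of 0 could not change under them. PAX3, TFAP2A and TFAP2B were outside the genes compared in all of these settings. The count became 1 with a pseudocount of 0.1 or 1 RPKM, through PAX3 at -3.57 and -1.06, and 1 with no minimum RPKM, through TFAP2A at -3.31. It became 2, PAX3 and TFAP2A, among genes with at least 20 reads over both libraries, an alternative chosen after seeing the data that both genes meet only through their carrier reads. The members' median log2 ratio stayed between -0.11 and 0.02 in all settings, each over 4 to 6 members. None of these medians took in PAX3, TFAP2A and TFAP2B together, so the range does not cover the members as a whole. The shift taken out was -0.02 by the median, 0.04 by TPM and -0.01 by the upper quartile, in log2 units. Over the other lists, marker lists included, each recomputed median was set against the medians of its genes' lower and upper interval ends. Of 110 such medians, 106 lay between these ends. That range is typical of a single gene and wider than the counting error of a list median. Of 124 recomputed counts, 114 changed by no more than 1.5 times. The pigment gene median reached -2.29 with no minimum and -4.13 with a minimum of 5 RPKM, and the bone genes past the threshold numbered 6 at 1.5-fold. No paired analysis was possible because each genotype had 1 library. The results for PAX3, TFAP2A and TFAP2B rest on 31, 24 and 6 reads.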
